A study of Mus musculus with 6 samples.

Results

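The genes described here are the nuclear genes for the subunits of the mitochondrial respiratory chain and ATP synthase, with the complex I assembly factors that share the Nduf name. They were chosen by name, as protein-coding mouse genes whose symbol starts with Nduf, Sdh (Sdha to Sdhd), Uqcr, Cox4i, Cox5, Cox6, Cox7, Cox8 or Atp5, and 96 of the 27179 genes in the count table met the rule. By complex they comprised 39 complex I subunits, 8 complex I assembly factors, 4 complex II subunits, 8 complex III subunits, 20 complex IV (cytochrome c oxidase) subunits and 17 ATP synthase subunits. Ndufa4 and Ndufa4l2 were placed with complex IV, since Ndufa4 is now known as a cytochrome c oxidase subunit.

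The study profiled RNA of a mouse acute myeloid leukemia labelled A/E9a;NRASG12D, a name for the AML1-ETO9a form of the RUNX1-RUNX1T1 fusion combined with mutant NRAS. Mice of strain C57BL/6 with this leukemia received panobinostat, an inhibitor of histone deacetylases, for 3 days (panobinostat libraries 1, 5 and 6) or the vehicle alone (vehicle libraries 2, 3 and 4). Leukemia cells positive for GFP and negative for propidium iodide, a dye that enters dead cells, were sorted from spleen, so both groups carried the same leukemia and marker. Numbers are those that lead the column names of the count table. The names hold 2 further numbers that no label explains, and the last of them is 1 for panobinostat library 1 and 3 for the other 5 libraries. The name of the count table also carries the term WT, shared by all libraries, without saying whether mice or leukemia cells are meant. Ages are not stated in the labels. Nothing in the labels states that each library is a separate animal, so the p-values here reflect only how far these libraries spread, and that spread may be technical.

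Complexes I and II pass electrons from NADH and succinate to coenzyme Q, complex III passes them to cytochrome c, and complex IV passes them to oxygen. Complexes I, III and IV pump protons while doing so, and ATP synthase uses the returning protons to make ATP. Most subunits are encoded in the nucleus and imported, and they assemble with a few subunits encoded by mitochondrial DNA, which were not analysed here. Subunits of complexes I, III and IV divide into the core ones that carry the redox reaction and the accessory or supernumerary ones around them, and several complex IV subunits exist as isoforms with different tissue ranges. Acute myeloid leukemia cells are known to rely on oxidative phosphorylation.

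Each panobinostat library held 25794869 to 32571961 counts and each vehicle library held 27259492 to 29548544. A single count was thus worth 0.0307 to 0.0388 CPM (reads scaled to a fixed library size), before the TMM scaling described next. Calls rest on edgeR's quasi-likelihood test over the 12916 genes with enough counts, with 0.05 as the limit of the adjusted p, and levels are CPM scaled by TMM factors. Panobinostat libraries held 3.22% to 6.72% of their counts in globin genes, against 0.614% to 0.847% in vehicle libraries, with the highest share in library 1. Of the defining genes of the leukemia list, Kit had a mean of 238 CPM with panobinostat and 216 CPM with vehicle. Runx1t1 had a mean of 615 CPM with panobinostat and 358 CPM with vehicle. By library Kit had 163, 321 and 229 CPM in panobinostat libraries 1, 5 and 6, against 210 to 221 CPM with vehicle. Runx1t1 had 368, 858 and 619 CPM in them, against 277 to 416 CPM with vehicle. For both genes the groups overlapped, and none of 8 tested genes of the list was called by edgeR, where 21.0% of all tested genes were called. The myeloid markers Mpo, Elane and Itgam had means of 0.726, 0.258 and 0.360 CPM with panobinostat and 0.581, 0.0795 and 0.296 CPM with vehicle, and the leukocyte marker Ptprc lay between 1.77 and 4.43 CPM.

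Most respiratory chain genes were slightly lower with panobinostat, few of them passed the test, and 1 subunit isoform rose more than 3-fold. Of the 96 genes, 89 had enough counts to be tested. Their median log2 fold change (panobinostat over vehicle) was -0.19, against 0.01 over all tested genes. It was below 0 for 79 of the 89, or 88.8%, against 48.9% of all tested genes, and for 82, 68 and 73 of the 89 when panobinostat library 1, 5 or 6 was left out. The test called 9 of the 89, or 10.1%, where it called 21.0% of all tested genes. Of these 7 were lower (7.87%, against 9.72% of all tested genes called lower) and 2 were higher (2.25%, against 11.3%). All 3 panobinostat values lay below all 3 vehicle values for 33 of the 89, or 37.1%, against 22.7% of all tested genes. At an unadjusted p under 0.05, 26 were lower (29.2%, against 17.7%) and 4 were higher (4.49%, against 19.1%).

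**Figure D1:**
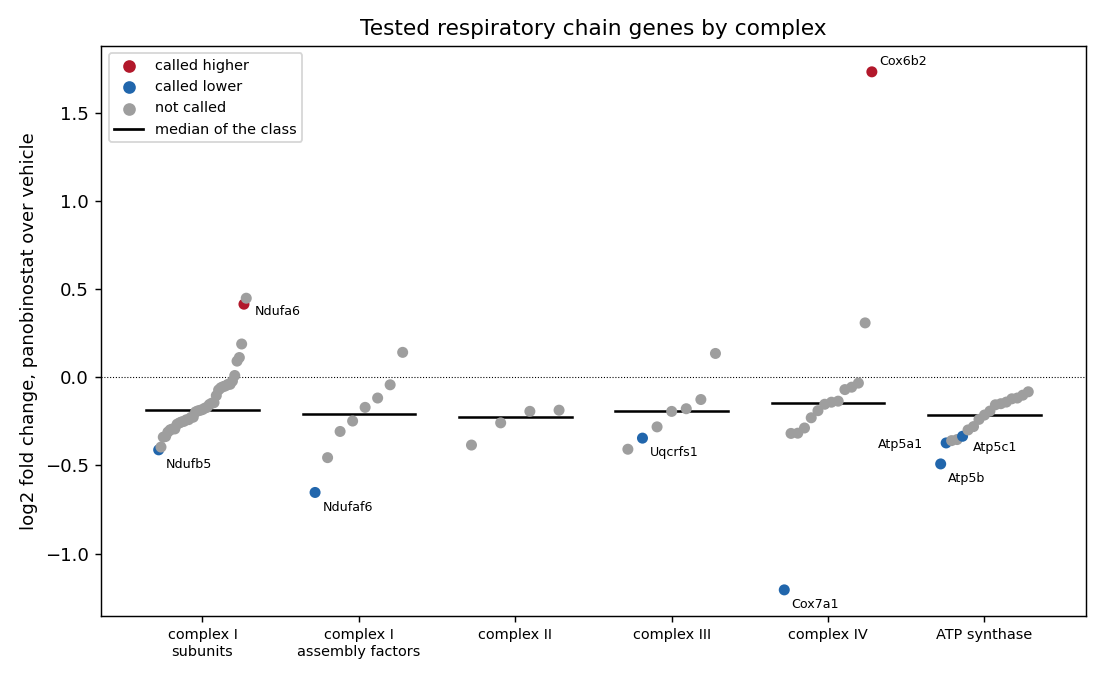
Log2 fold change (panobinostat over vehicle) of the 89 tested respiratory chain genes, by complex. Each point is a gene, coloured by its call, and the bar is the median of its class. All 6 medians lie between -0.23 and -0.15, all 17 ATP synthase genes lie below 0, and Cox6b2 stands at 1.73.

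The shift was unequal between the 3 panobinostat libraries. Library 5 lay below all vehicle libraries for 80 of the 89 genes and library 6 for 79, while library 1 lay below them for 35 and above them for another 35. Over all tested genes the same shares were 39.9% below and 40.0% above in library 5, 36.8% below and 36.4% above in library 6, and 39.9% below and 40.2% above in library 1. The median log2 ratio of the 89 genes to their vehicle mean was 0.02 in library 1, -0.34 in library 5 and -0.24 in library 6. The vehicle libraries lay between -0.03 and 0.05 on this scale.

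Library 1 also had the highest erythroid and macrophage marker levels. For comparison with the calls in the marker lists, 11.3% of all tested genes were called higher. The summed level of the erythroid markers, of which 7 of 9 were found and 5 were called higher, was 49952 CPM in library 1, 24684 in library 5 and 21854 in library 6, against 4733 to 5846 CPM with vehicle. The 9 red pulp macrophage markers summed to 40.9 CPM in library 1 and to 20.2 and 13.1 CPM in libraries 5 and 6, against 9.50 to 15.0 CPM with vehicle, and 1 of the 9 was called higher. The 6 plasmacytoid dendritic cell markers summed to 161 to 248 CPM with panobinostat, against 78.4 to 90.9 CPM with vehicle, almost all of it Bst2, and 1 of 4 tested was called higher, while Siglech was at 0 in 2 of the 3 panobinostat libraries and at most 0.103 CPM in any library. The 5 conventional dendritic cell markers summed to 16.5 to 22.6 CPM with panobinostat, against 8.09 to 10.7 CPM with vehicle. Most of each sum was Zbtb46. Both tested genes were called higher, while Flt3 and Xcr1 were at most 0.456 CPM in any library. Cd209a was at 0 in all panobinostat libraries and had a mean of 0.0458 CPM with vehicle. Sums of the neutrophil, B cell, T cell and NK cell lists were at most 15.3 CPM in any library and overlapped between the groups. The 9 leukemia and progenitor markers summed to 543, 1217 and 866 CPM in libraries 1, 5 and 6, against 503 to 650 CPM with vehicle. The part of other cells in the results below was not tested. In these bulk libraries, fewer cells of a type and less RNA per cell cannot be told apart.

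Without library 1, edgeR's test called 49 of the 89 genes, or 55.1%, against 31.1% of all tested genes. Of these 47 were lower and 2 were higher, and the 9 genes called with all libraries were among the 49. The median log2 fold change was then -0.30. Leaving out any single vehicle library left 1 call, Cox6b2, while 4.65%, 9.54% and 3.32% of all tested genes were called without vehicle library 2, 3 and 4. Without panobinostat library 5 there were 3 calls, against 12.5% of all tested genes, and without library 6 there were 4, against 15.9%. With all libraries, DESeq2 called 21 of the 89 (18 lower and 3 higher) where it called 27.6% of all tested genes, and scaling by library size alone gave 29 (28 lower and 1 higher) where it gave 24.8%. Without a filter on low counts 7 were called, against 13.6% of all genes, and with a mean of at least 5 CPM 8 were called, against 23.4%.

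**Figure D2:**
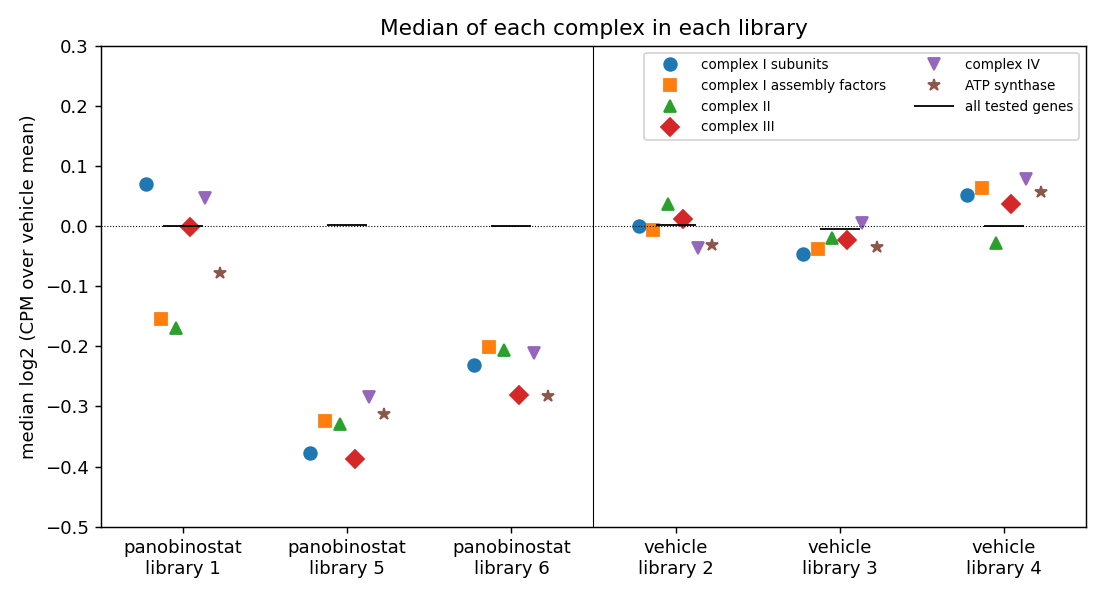
Median log2 ratio of each complex to its vehicle mean, in each library, with the median over all tested genes as a bar. Libraries 5 and 6 sit below 0 for all 6 classes. In library 1 complex I subunits are at 0.07 and complex IV at 0.05, while ATP synthase is at -0.08 and complex II at -0.17.

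In complex I, 1 of 39 subunits was called lower and 1 higher, or 5.13%, where 21.0% of all tested genes were called. The median log2 fold change was -0.18, and 33 of the 39 were below 0, or 84.6%, against 48.9% of all tested genes. The 7 nuclear core subunits, which hold the flavin and the iron-sulfur clusters, were all below 0 with a median of -0.23 and no call. The 32 accessory subunits had a median of -0.16. By library the core subunits had medians of -0.07, -0.41 and -0.29 in panobinostat libraries 1, 5 and 6, and the accessory subunits had 0.10, -0.36 and -0.23. Summed CPM of the 39 subunits was 2162 ± 308 with panobinostat and 2378 ± 67.3 with vehicle (SD, n = 3 each). Without library 1, 20 subunits were called lower and 1 higher, where 31.1% of all tested genes were called in either direction. No subunit was called when any vehicle library was left out.

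Ndufb5, an accessory subunit of the membrane arm (Entrez 66046, chromosome 3), had 62.0, 51.6 and 61.4 CPM in panobinostat libraries 1, 5 and 6, against 77.6, 76.2 and 79.0 CPM in vehicle libraries 2, 3 and 4. Every panobinostat library lay below every vehicle library. It fell by 0.41 ± 0.10 on the log2 scale (SE, edgeR adjusted p = 0.027). The adjusted p reached 0.114 when single libraries were left out.

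Ndufa6, an accessory subunit of the LYR family that binds the mitochondrial acyl carrier protein, had 23.8, 24.3 and 23.4 CPM with panobinostat, against 16.3, 19.0 and 18.2 CPM with vehicle. The panobinostat libraries were close together and all above the vehicle libraries, library 1 included. Its log2 fold change was 0.41 ± 0.11 (SE, edgeR adjusted p = 0.035, up to 0.125 with a library left out). Ndufab1, the acyl carrier protein itself, averaged 42.7 ± 4.72 CPM with panobinostat and 54.1 ± 4.61 CPM with vehicle (SD, n = 3 each, log2 fold change -0.34, edgeR adjusted p = 0.078); it is named here after its value was seen.

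Ndufb1, a small accessory subunit of the membrane arm, had the highest log2 fold change of complex I but did not pass the test. It had 127, 92.2 and 93.1 CPM with panobinostat, against 72.4, 72.5 and 83.9 CPM with vehicle. Library 1 was the highest, and the groups did not overlap. The log2 fold change was 0.45 ± 0.14 (SE, edgeR adjusted p = 0.065). Without library 1 it was 0.28 (adjusted p = 0.051), below the 0.42 of Ndufa6 in the same fit.

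Of the 8 assembly factors with an Nduf name, proteins that help to build complex I but are no part of the finished enzyme, 1 was called. The share called over all tested genes was 21.0%. The median of the 8 was -0.21, and 7 were below 0, against 48.9% of all tested genes. Ndufaf6 had 6.03, 4.76 and 6.15 CPM with panobinostat, against 8.53, 8.69 and 9.46 CPM with vehicle. The groups were apart at low levels, and the log2 fold change was -0.65 ± 0.17 (SE, edgeR adjusted p = 0.033, up to 0.138 with a library left out). Ndufaf3 had the highest value of the 8, 0.14 ± 0.20 (SE, edgeR adjusted p = 0.647), with 17.9 CPM in library 1 but 12.8 and 10.9 CPM in libraries 5 and 6, against 11.7 to 14.1 CPM with vehicle.

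Complex II, which joins the citric acid cycle to the chain and has no subunit from mitochondrial DNA, had all 4 members below 0 and none called. Over all tested genes 48.9% were below 0 and 21.0% were called. Sdha, the flavoprotein that oxidises succinate, had 261, 257 and 284 CPM with panobinostat, against 326, 316 and 317 CPM with vehicle. The 2 groups did not overlap, and library 1 was no higher than library 6. The log2 fold change of Sdha was -0.26 ± 0.08 (SE, edgeR adjusted p = 0.068). Sdhb, the iron-sulfur subunit, had -0.19 ± 0.09 (adjusted p = 0.182), and the membrane anchor Sdhc had -0.19 ± 0.11 (adjusted p = 0.259). Sdhd, the other anchor, was counted at only 1.81 to 3.69 CPM with panobinostat and 3.32 to 4.15 CPM with vehicle, and its value of -0.38 ± 0.29 (adjusted p = 0.367) was the least precise of the complex. Summed over the complex, levels were 465, 421 and 459 CPM with panobinostat, against 540, 520 and 520 CPM with vehicle, with no overlap. Sdha made up most of each sum. Sdhb, like Sdha, did not overlap between the groups. Sdhc did, at 94.6 CPM in library 1 against 91.6 to 97.5 CPM with vehicle, and so did Sdhd. Without library 1, Sdhc (log2 fold change -0.30, edgeR adjusted p = 0.026) and Sdhb (-0.27, adjusted p = 0.030) were called lower, whereas Sdha had an adjusted p of 0.063.

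Complex III had 1 of 7 tested subunits called lower, where 9.72% of all tested genes were called lower. The median was -0.19, and 6 of 7 were below 0, against 48.9% of all tested genes. The called subunit was Uqcrfs1, the Rieske iron-sulfur protein that takes electrons from coenzyme Q. It had 91.0, 75.2 and 82.8 CPM with panobinostat, against 107, 104 and 106 CPM with vehicle. All panobinostat libraries lay below the vehicle range, library 5 farthest. It fell by 0.35 ± 0.09 on the log2 scale (SE, edgeR adjusted p = 0.039, up to 0.139 with a library left out). Uqcr10, a small subunit of the complex, had the lowest value of complex III, -0.41 ± 0.12 (SE, edgeR adjusted p = 0.052), with 57.4, 42.7 and 52.3 CPM with panobinostat and 65.0, 66.9 and 70.5 CPM with vehicle. Uqcrh, the hinge protein next to cytochrome c1, had 180, 137 and 145 CPM with panobinostat and 133, 139 and 150 CPM with vehicle, so the groups overlapped (log2 fold change 0.13 ± 0.12, SE, edgeR adjusted p = 0.455). Without library 1, 6 of the 7 tested subunits were called lower, where 31.1% of all tested genes were called in either direction. None of the 7 was called when any vehicle library was left out.

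Complex IV held the extremes of the whole set, both in isoforms of accessory subunits. Cox6b2 rose and Cox7a1 fell, and the other 12 tested subunits lay between -0.32 and 0.31 on the log2 scale with no call. Of the 14, 14.3% were called, where 21.0% of all tested genes were called. The median of the 14 was -0.15. Without library 1 it was -0.26, and 7 of the 14 were called lower, namely Cox7a1, Cox5b, Cox5a, Cox6c, Cox7c, Cox8a and Ndufa4, with Cox6b2 still higher. That fit called 31.1% of all tested genes in either direction. Only Cox6b2 was called when any vehicle library was left out. Cox6b2 and Cox7a1, each with its more widely expressed paralog, are also the pairs whose proximal promoters are printed here, so that the isoforms can be compared. The sequences are the 250 bases before the start of transcription in RefSeq for GRCm38.p6, the assembly that mm10 represents, read 5′ to 3′ on the strand of the gene. The Cox7a2 window lies before a start inside the gene, which spans chr9:79755241-79771422. The windows of Cox6b2, Cox6b1 and Cox7a1 adjoin the gene span. Capitals mark CCGGAAG or its reverse complement, the core bound by ETS family factors such as GABPA.
Cox6b2, chr7:4753095-4753344, minus strand: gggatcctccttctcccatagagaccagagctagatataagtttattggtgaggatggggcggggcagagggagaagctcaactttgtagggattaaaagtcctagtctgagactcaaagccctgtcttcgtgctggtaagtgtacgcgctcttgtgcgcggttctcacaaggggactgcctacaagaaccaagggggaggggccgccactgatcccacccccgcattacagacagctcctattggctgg
Cox6b1, chr7:30626115-30626364, minus strand: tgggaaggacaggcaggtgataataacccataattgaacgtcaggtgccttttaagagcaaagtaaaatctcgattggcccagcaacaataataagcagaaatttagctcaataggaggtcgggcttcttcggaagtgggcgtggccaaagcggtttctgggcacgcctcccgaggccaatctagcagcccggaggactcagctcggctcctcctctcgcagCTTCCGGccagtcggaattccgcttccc
Cox7a1, chr7:30183921-30184170, plus strand: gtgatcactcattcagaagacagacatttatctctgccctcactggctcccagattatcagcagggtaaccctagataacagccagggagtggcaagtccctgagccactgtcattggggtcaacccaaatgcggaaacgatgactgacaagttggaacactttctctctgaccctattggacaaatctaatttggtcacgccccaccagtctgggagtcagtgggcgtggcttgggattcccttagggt
Cox7a2, chr9:79759854-79760103, minus strand: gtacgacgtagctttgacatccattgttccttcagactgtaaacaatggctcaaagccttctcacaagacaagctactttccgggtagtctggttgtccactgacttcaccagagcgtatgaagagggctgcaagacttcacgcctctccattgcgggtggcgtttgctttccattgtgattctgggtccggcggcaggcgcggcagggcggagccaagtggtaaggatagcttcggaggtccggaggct
In these windows Cox6b2 held 8 CG dinucleotides and Cox6b1 held 14, and Cox7a1 held 4 and Cox7a2 held 14. The median over the 83 promoters of 78 respiratory chain genes found in the table was 15, with a range of 1 to 35, and over 11813 promoters of tested protein-coding genes it was also 15.

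Cox6b2, known as the testis isoform of subunit VIb (Entrez 333182, chromosome 7), had 30.7, 48.2 and 34.4 CPM in panobinostat libraries 1, 5 and 6, against 10.1, 11.8 and 12.2 CPM in vehicle libraries 2, 3 and 4. Every panobinostat library was well above the vehicle range, and library 1 was the lowest of the 3. The log2 fold change was 1.73 ± 0.19 (SE, edgeR adjusted p = 0.0042), a 3.32-fold rise. It was called in all 6 fits that leave out a library and in all 8 other alternatives, with an adjusted p of at most 0.033.

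Its paralog Cox6b1, the widely expressed isoform, had 168, 130 and 137 CPM with panobinostat, against 142, 155 and 161 CPM with vehicle. The groups overlapped (log2 fold change -0.07 ± 0.12, SE, edgeR adjusted p = 0.699). Per kilobase of exon, Cox6b2 made up 10.4%, 19.1% and 13.8% of the 2 isoforms with panobinostat, against 4.35%, 4.67% and 4.61% with vehicle. Cox6b1 thus remained the more abundant isoform in every library.

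Cox7a1, the heart and muscle isoform of subunit VIIa (Entrez 12865, chromosome 7), had 1.14, 1.29 and 0.883 CPM with panobinostat, against 2.65, 2.55 and 2.43 CPM with vehicle. The levels were low but did not overlap. Its log2 fold change was -1.21 ± 0.24 (SE, edgeR adjusted p = 0.017, up to 0.077 with a library left out). Cox7a2, the widely expressed isoform, had 9.68, 7.30 and 8.48 CPM with panobinostat, against 9.69, 10.9 and 11.2 CPM with vehicle, and did not pass (log2 fold change -0.32 ± 0.16, SE, edgeR adjusted p = 0.191). Per kilobase of exon, Cox7a1 made up 17.2%, 23.8% and 15.5% of the pair with panobinostat, against 32.5%, 29.3% and 27.6% with vehicle. Cox7a2 had only 11.2 CPM per kilobase of exon with vehicle, where Cox6b1 had 215. It overlaps Tmem30a over 2482 bases of gene span and the pseudogene Gm51685 over 2858 bases. How reads in such overlaps were assigned is not stated in the sources at hand. Whether the counts give the true level of Cox7a2, and so the shares of the pair, was not tested.

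Cox7a2l is a relative of Cox7a2 linked to supercomplexes of complexes III and IV, and its activity in this strain was not tested. It had 173, 182 and 155 CPM with panobinostat, against 119, 149 and 145 CPM with vehicle. All panobinostat libraries lay above the vehicle range, library 1 included, but it missed the threshold (log2 fold change 0.31 ± 0.12, SE, edgeR adjusted p = 0.100). Cox4i1, the widely expressed form of subunit IV, had 231 ± 18.8 CPM with panobinostat and 236 ± 5.36 CPM with vehicle (SD, n = 3 each, log2 fold change -0.03, edgeR adjusted p = 0.822). Cox6a1 at -0.06, Cox8a at -0.14, Cox7b at -0.15 and Ndufa4 at -0.29 on the log2 scale likewise did not pass, with adjusted p between 0.113 and 0.772. Without library 1, Cox8a (-0.24, edgeR adjusted p = 0.045) and Ndufa4 (-0.37, adjusted p = 0.030) did pass.

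The tissue-restricted partners of these subunits were scarcely counted. Cox7b2 had 0 counts in every library, Cox8b had 1 count in panobinostat library 6 alone, Cox8c had 1 count in vehicle library 2 alone, and Ndufa4l2 had 1 count over the panobinostat libraries and 4 over the vehicle libraries. Cox6a2, the heart and muscle isoform of subunit VIa, had 7 counts in panobinostat library 1 and 4 in vehicle library 2. Cox4i2, the lung isoform of subunit IV, had 11, 9 and 3 counts in panobinostat libraries 1, 5 and 6, against 3, 0 and 0 in vehicle libraries 2, 3 and 4, and it overlaps Bcl2l1 over 6308 bases of gene span. These 6 genes and Uqcr11, a small complex III subunit listed with 1 count in vehicle library 3, were the 7 that could not be tested.

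**Figure D3:**
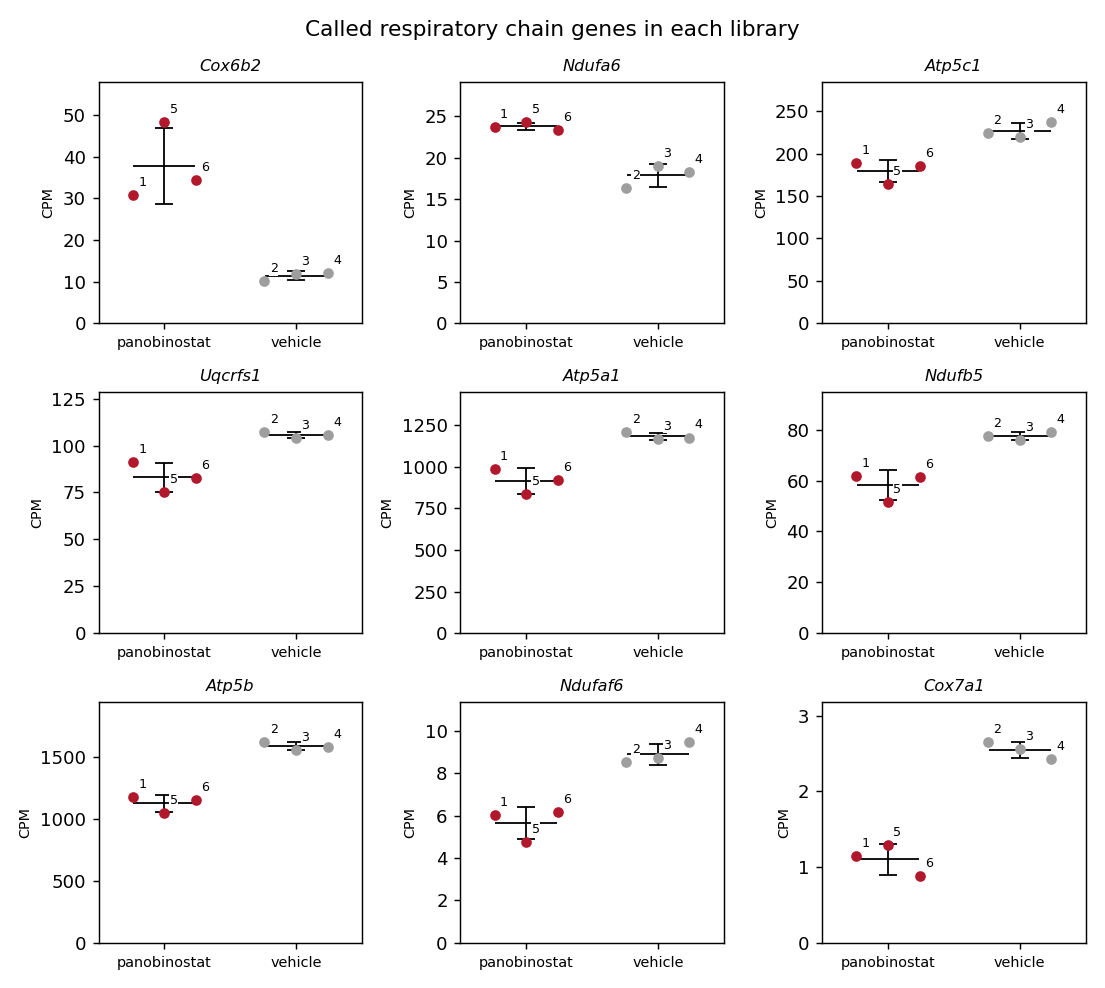
CPM of the 9 called respiratory chain genes in each library, with panobinostat left and vehicle right. Points carry the library number, and bars are the mean and SD of 3 libraries. No panobinostat value overlaps the vehicle values in any panel, and Cox6b2 is 30.7 to 48.2 CPM with panobinostat against 10.1 to 12.2 CPM with vehicle.

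ATP synthase had 3 of 17 genes called lower, or 17.6%, where 9.72% of all tested genes were called lower and 21.0% in either direction. All 17 genes were below 0, against 48.9% of all tested genes, and their median was -0.21. The summed level of ATP synthase was 4172, 3524 and 3810 CPM in panobinostat libraries 1, 5 and 6, against 4878, 4787 and 4930 CPM in vehicle libraries 2, 3 and 4. All panobinostat libraries lay below all vehicle libraries, library 1 included. Atp5b and Atp5a1 made up most of each sum. In library 1, 9 of the 17 genes lay below all vehicle libraries and 3 lay above them. The summed levels of complex II, mostly Sdha, and of the complex I assembly factors were also apart. Those of complexes I, III and IV overlapped, each through library 1. Without library 1, 11 of the 17 genes were called lower, where 31.1% of all tested genes were called in either direction. None of the 17 was called when any vehicle library was left out.

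The 3 calls were subunits of the F1 head and its central stalk, which make up the catalytic part. Atp5b, the catalytic beta subunit (Entrez 11947, chromosome 10), had 1179, 1051 and 1153 CPM with panobinostat, against 1620, 1558 and 1579 CPM with vehicle. The groups were far apart relative to their spread. It fell by 0.49 ± 0.09 on the log2 scale (SE, edgeR adjusted p = 0.014, up to 0.076 with a library left out).

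Atp5a1, the alpha subunit, had 990, 836 and 921 CPM with panobinostat, against 1209, 1171 and 1177 CPM with vehicle (log2 fold change -0.37 ± 0.10, SE, edgeR adjusted p = 0.036). Atp5c1, the gamma subunit that turns within the head, had 189, 165 and 186 CPM with panobinostat, against 224, 219 and 237 CPM with vehicle (log2 fold change -0.33 ± 0.09, SE, edgeR adjusted p = 0.041). For both genes the groups did not overlap, and with a library left out the adjusted p reached 0.133 for Atp5a1 and 0.163 for Atp5c1. The 5 genes of the head and stalk, which also include Atp5d and Atp5e, had a median of -0.33, and their medians by library were -0.26, -0.46 and -0.29 in panobinostat libraries 1, 5 and 6.

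The 3 genes Atp5g1, Atp5g2 and Atp5g3 encode the same mature c subunit, which forms the rotor ring in the membrane. None passed the test. Atp5g1 had 95.8, 74.1 and 82.6 CPM with panobinostat, against 111, 104 and 109 CPM with vehicle (log2 fold change -0.36 ± 0.11, SE, edgeR adjusted p = 0.056). Atp5g3 stood at -0.30 ± 0.10 (adjusted p = 0.069) and Atp5g2 at -0.21 ± 0.09 (adjusted p = 0.142), and for each of the 3 the groups did not overlap. Per kilobase of exon, Atp5g1, Atp5g2 and Atp5g3 made up 8.74%, 47.9% and 43.4% of the ring genes with panobinostat, against 9.36%, 46.2% and 44.5% with vehicle. The 4 peripheral stalk genes had a median of -0.18 and the 5 other membrane subunits -0.16. Atp5h, a stalk subunit, was nearest to 0 at -0.08 ± 0.13 (adjusted p = 0.674).

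Atpif1, the inhibitor that blocks ATP synthase when it runs in reverse, is outside the name rule. It had 463, 289 and 343 CPM with panobinostat, against 273, 266 and 302 CPM with vehicle. Library 1 was the highest and library 5 lay within the vehicle range. It did not pass the test (log2 fold change 0.38 ± 0.17, SE, edgeR adjusted p = 0.155).

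**Figure D4:**
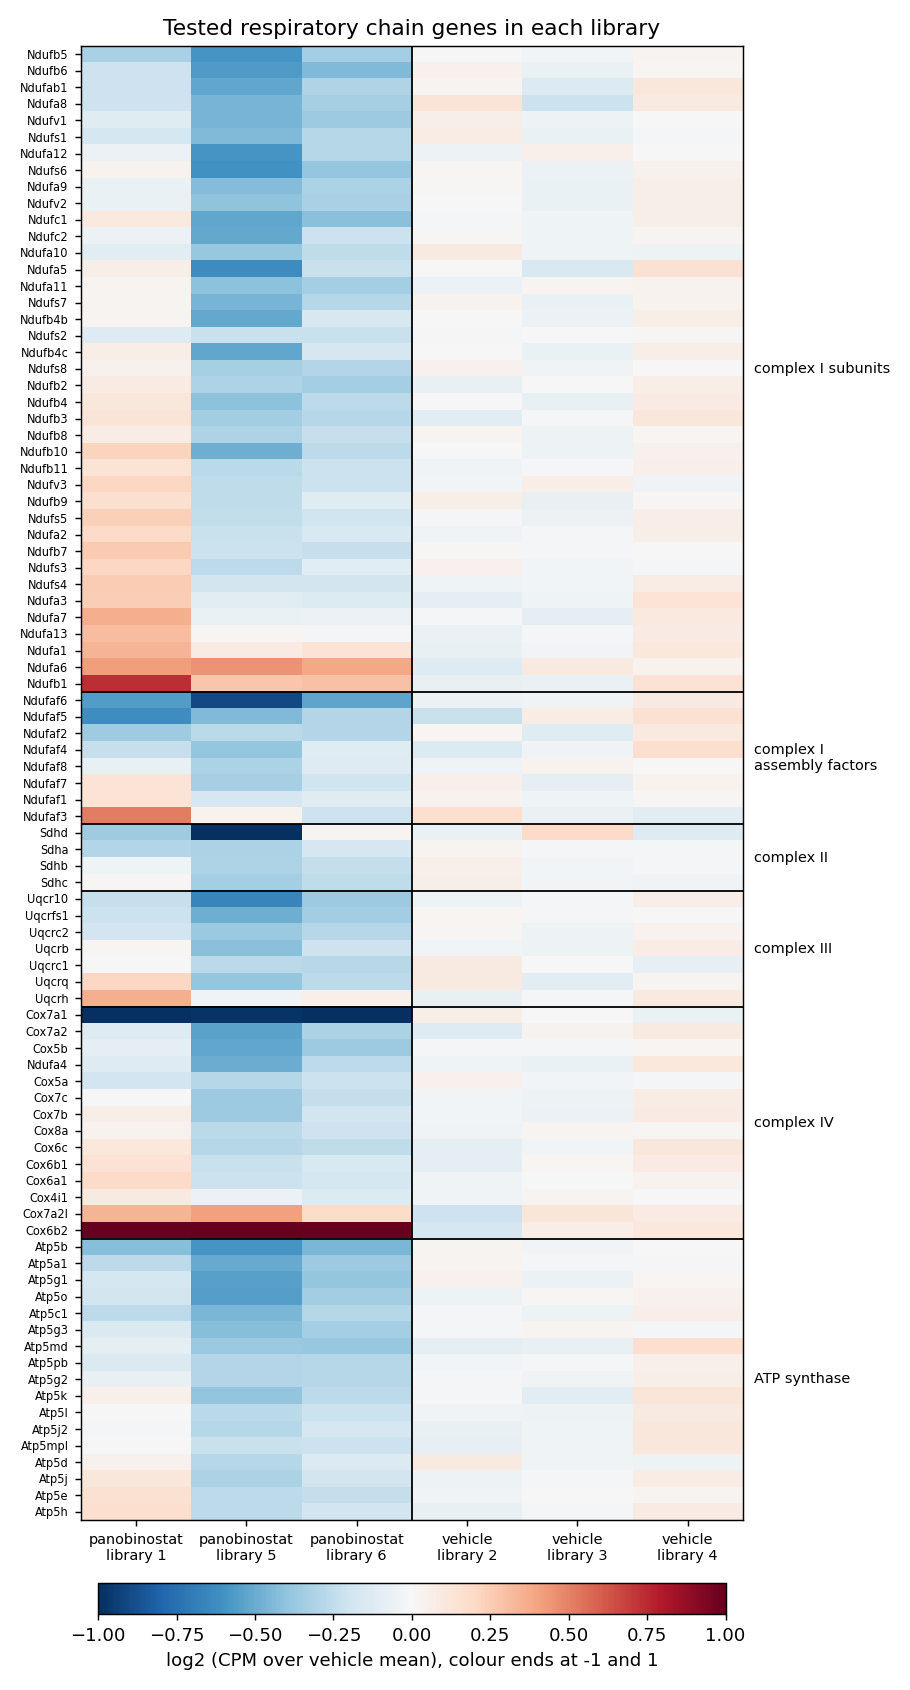
Log2 ratio of each of the 89 tested genes to its vehicle mean, in each library, by complex and ordered by fold change within it. Colours end at -1 and 1. Libraries 5 and 6 are below 0 for most genes, library 1 is mixed, and Ndufb1, Ndufa6, Cox7a2l and Cox6b2 are among the genes above 0 in all 3 panobinostat libraries.

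The complexes differed in where library 1 lay. In it, 21 of 39 complex I subunits lay above all vehicle libraries and 10 below, while 9 of 17 ATP synthase genes lay below and 3 above. In libraries 5 and 6 all 17 ATP synthase genes lay below. Over 84 tested genes with a known exon length, Spearman's rho of the log2 ratio with length was -0.21 in library 1, -0.01 in library 5 and -0.14 in library 6; these genes share libraries and are not replicates. The log2 fold change had a rho of -0.14 with length and of 0.02 with mean CPM over the 89 genes.

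The promoters were searched on both strands, without mismatch, from 250 bases before to 50 after the start for cores of factors known to regulate these genes. These were GCGCATGCG for NRF1, CCGGAAG for the ETS family and AAGATGGCG for YY1. The last letters of CCGGAAG are the first of AAGATGGCG, so that matches can overlap. NRF1 cores stood in 12.8% of 78 respiratory chain genes, against 4.31% of tested protein-coding genes and 1.95% of all genes in the promoter table. ETS cores stood in 24.4%, against 21.3% and 9.93%, and YY1 motifs in 10.3%, against 3.74% and 1.64%.
Median log2 fold changes were -0.21 for 9 tested genes with the NRF1 core and -0.19 for 66 without it. They were -0.13 for 18 genes with the ETS core and -0.23 for 57 without, and -0.20 for 8 genes with the YY1 motif and -0.19 for 67 without. Of the 9 called genes 7 were searched, and none held any of the 3 motifs, so that 0 of 30 tested genes with a motif were called by edgeR. Of the tested genes without a motif 7 of 45 were called, or 15.6%, where 21.0% of all tested genes were called. Without library 1 the counts were 14 of 30 with a motif (46.7%) and 26 of 45 without (57.8%), where 31.1% of all tested genes were called. Whether the motifs bear on the calls was not tested. Cox6a1, whose level did not pass the test, is shown because it holds both an NRF1 core and an ETS core, in capitals.
Cox6a1, chr5:115348959-115349208, minus strand: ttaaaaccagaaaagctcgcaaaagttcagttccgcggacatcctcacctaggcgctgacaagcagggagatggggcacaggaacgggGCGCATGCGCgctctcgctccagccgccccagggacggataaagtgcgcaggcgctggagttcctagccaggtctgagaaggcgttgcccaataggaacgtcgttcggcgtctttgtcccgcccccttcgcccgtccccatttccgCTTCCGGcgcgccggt

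Among other genes of the pathway, in 8 lists, 13 of 88 tested genes were lower, or 14.8%, against 9.72% of all tested genes, and none was called higher. Cycs, the electron carrier cytochrome c between complexes III and IV, had 112, 100 and 113 CPM in panobinostat libraries 1, 5 and 6, against 150, 147 and 166 CPM in vehicle libraries 2, 3 and 4. The groups were apart, library 1 included, and Cycs fell by 0.51 ± 0.09 on the log2 scale (SE, edgeR adjusted p = 0.014). Cyc1, the cytochrome c1 subunit of complex III that the name rule leaves out, had 118, 92.5 and 113 CPM with panobinostat, against 169, 145 and 145 CPM with vehicle. It fell by 0.50 ± 0.12 (SE, edgeR adjusted p = 0.029).

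In the list of cytochrome c and coenzyme Q synthesis, 4 of 15 tested genes were lower, among them Pdss1, which makes the side chain of coenzyme Q (log2 fold change -0.67, edgeR adjusted p = 0.015), and Hccs, which attaches heme to cytochrome c (-0.50, adjusted p = 0.025). Of 11 complex I assembly factors without an Nduf name, 3 were lower, namely Ecsit (-0.52, adjusted p = 0.019), Aifm1 (-0.42, adjusted p = 0.021) and Acad9 (-0.36, adjusted p = 0.034). Of 22 complex IV assembly genes 2 were lower, Cox10, which makes heme A's precursor heme O (-0.52, adjusted p = 0.018), and Higd1a (-0.36, adjusted p = 0.044), and the median of the list was 0.02. Cyc1 was the call among 7 genes of its list. None of 4 complex II assembly genes and none of 4 ATP synthase assembly genes was called by edgeR; at an unadjusted p under 0.05 each list had 1, higher in the complex II list and lower in the ATP synthase list.

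Genes for mitochondrial DNA and RNA upkeep had 2 of 14 lower, namely the DNA polymerase Polg (-0.40, edgeR adjusted p = 0.021) and Lrpprc, which stabilises mitochondrial mRNA (-0.41, adjusted p = 0.030). Of 11 tested regulators of mitochondrial biogenesis 1 was lower, Gabpb2, a partner of the ETS factor GABPA (-0.38, adjusted p = 0.039). The mitochondrial transcription factor Tfam (-0.26, adjusted p = 0.084), the coactivator Ppargc1b (-0.66, adjusted p = 0.076), Gabpa (-0.19, adjusted p = 0.120), Nrf1 (-0.11, adjusted p = 0.559) and Esrra (0.14, adjusted p = 0.292) did not pass. Ppargc1a had too few counts to be tested.

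Some levels carry limits from the gene models. Of the 96 genes, 32 overlap another annotated gene, among them Atp5a1 with Haus1 over 118 bases. Ndufb4, Ndufb4b and Ndufb4c are near copies that may share reads, with log2 fold changes of -0.17, -0.20 and -0.19 and no call. RefSeq lists 19 pseudogenes with these name stems, of which 5 were in the count table. All 5 had a count, and the highest total over the libraries was 3542. Whether these reads came from the genes described here was not tested. Uqcr11, with 1 count in all, and Sdhd, at 2.26 CPM per kilobase of exon with panobinostat and 2.96 with vehicle where Sdha had 64.7 with panobinostat and 77.5 with vehicle, stood far below their complexes; whether these are the levels of the transcripts was not tested.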

How the data were processed

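The authors deposited raw read counts for 6 RNA-seq libraries, 1 column each, under Entrez IDs. The submitters' processing notes name HISAT2 2.1.0, featureCounts (Subread 2.0.0), cutadapt 2.1, FastQC 0.11.6, bcl2fastq 2.17.1.14 and limma, with build mm10. The annotation, strand setting and treatment of multiply placed reads were not stated in those sources, so overlapping genes and near copies may share reads. Columns were tied to groups by the word treated or control in their names, and 0 columns were left unused.

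Names came from RefSeq (GRCm38), by current ID for 25275 genes and by an older ID for 23, which gave 95 and 1 of the 96 genes. Low counts were removed with filterByExpr, libraries were scaled by TMM, and panobinostat was compared with vehicle by the quasi-likelihood test of edgeR 4.0.16 (R 4.3.3), fitting treatment alone, with p-values adjusted by Benjamini-Hochberg over 12916 genes. The fit was tested on simulated data. The common biological coefficient of variation was 0.195. Exon lengths, for 91 of the 96 genes, are unions of GENCODE exons, and promoters are from RefSeq for GRCm38.p6.

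Named genes are up to 4 called members per class, the highest and lowest of each class, complex II, isoform pairs, Cox7a2l, Atpif1, up to 3 called genes per pathway list and 8 regulators or carriers. The members and lists were chosen with earlier results of these data known. Alternatives were DESeq2 1.42.0, limma-voom (limma 3.58.1), 4 other normalizations, 2 other filters and leaving out each library.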

Additional observations from a re-analysis of the deposited data

How the results depend on the processing

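The median log2 fold change of each of the 6 classes and the log2 ratio of each summed level stayed below 0 under every alternative run for it (summed levels were not recomputed with DESeq2, limma-voom or the other filters), and of 656 values of named genes under alternatives 542 kept direction and side of the threshold, 86 lost their call, 22 gained one and 6 changed sign. The number of called respiratory chain genes, 9 as reported, was 21 with DESeq2 (18 lower) and 29 with library size alone (1 higher and 28 lower). By class, DESeq2 called 5 complex I subunits, 2 assembly factors, 1 complex II, 3 complex III and 7 ATP synthase genes, and library size alone called 9, 2, 1, 3 and 9 of these and 5 complex IV genes. Library size alone also moved the median of all tested genes to -0.10, against 0.01, and gave medians of -0.31 for assembly factors and -0.33 for complex II, and a log2 ratio of summed levels of -0.34 for complex II. Without a filter on low counts 1 gene was called higher and 1 complex I subunit was called. With a mean CPM of at least 5, 1 complex IV gene was called, since Cox7a1 lies below that level.

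Leaving out each library in turn gave 438 to 4056 called genes overall and 1 to 49 respiratory chain genes, with 1 to 2 higher and 0 to 47 lower. By class the ranges were 0 to 21 complex I subunits, 0 to 1 assembly factors, 0 to 2 complex II, 0 to 6 complex III, 1 to 8 complex IV and 0 to 11 ATP synthase genes. Class medians ranged from -0.32 to -0.072 for complex I subunits, -0.26 to -0.14 for assembly factors, -0.29 to -0.15 for complex II, -0.32 to -0.14 for complex III, -0.26 to -0.075 for complex IV and -0.29 to -0.18 for ATP synthase. Log2 ratios of summed levels ranged, in the same order of classes, from -0.26 to -0.059, -0.26 to -0.14, -0.26 to -0.19, -0.28 to -0.12, -0.16 to -0.028 and -0.41 to -0.29. Beside the 0 called lower without a vehicle library, 1 was called higher. Of the 89 tested genes, 68 to 82 were below 0. Among the named genes, signs changed in 5 whose values were not called, and over the left-out libraries Ndufaf3 ranged from -0.087 (without panobinostat library 1) to 0.29, Cox6a1 from -0.20 to 0.017, with 0.0033 without library 6 and the highest without library 5, Cox4i1 from -0.099 to 0.019 (without library 6), Cox6b1 from -0.19 to 0.0012 and Nrf1 from -0.21 to 0.0057 (both without library 5). The cause of these changes was not tested, beyond fewer libraries in the fit. No paired analysis was possible because the count columns carry no replicate number of the titles, and no label explains the further numbers in their names. Precision is limited by 3 libraries per group and a coefficient of variation of 0.195.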

Other observations

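By exon length, the longest 28 of the 84 tested genes with a length had a median log2 ratio of -0.11 in panobinostat library 1, against 0.04 for the shortest 28 and 0.07 for the middle 28, while in library 5 the medians were -0.32, -0.36 and -0.31 for the longest, shortest and middle genes. The number called lower was 3 of the longest, 1 of the shortest and 3 of the middle genes.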
